A study of Mus musculus with 8 samples.

Results

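A set of 10 genes of sarcoplasmic reticulum calcium cycling (Ryr2, Atp2a2, Pln, Casq2, Slc8a1, Hrc, Trdn, Jph2, Asph and Camk2d) was followed in mouse heart RNA. The genes were chosen by name, and all 10 were found among the 17911 genes of the deposited table. RNA was sequenced from the hearts of wild-type mice, for which the labels name no treatment, labelled C57Bl6/J wt, 4 female and 4 male. The submitters describe the mice as adult, at 4 weeks in the series' design text and at 4 to 6 weeks in the protocol, and all 8 hearts carry the same batch label. RNA was extracted from each heart on its own, per the protocol with a kit made for small RNA. Female hearts are numbered 1 to 4 and male hearts 1, 3, 4 and 5, as the labels have it, and values below are listed in that order. A level is a normalized read count, that is, the reads of a gene divided by the size factor of the heart.

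With each heartbeat, calcium entering through the L-type channel opens the ryanodine receptor RYR2, and the sarcoplasmic reticulum releases its stored calcium onto the myofilaments. The pump SERCA2, encoded by Atp2a2, returns calcium to the store under the brake of phospholamban (Pln), and the sodium-calcium exchanger (Slc8a1) carries calcium out of the cell. Inside the store, calsequestrin (Casq2) and the histidine-rich calcium binding protein (Hrc) hold calcium, while triadin (Trdn) and junctin (from the Asph locus) link calsequestrin to the release channel. Junctophilin 2 (Jph2) holds the store close to the cell membrane, and CaMKII delta (Camk2d) phosphorylates both RYR2 and phospholamban.

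Reads assigned to genes numbered 51.7 M to 75.7 M per heart, and the 10 genes took 2.92% of them on average (2.76% to 3.12% in single hearts). All 8 cardiomyocyte myofilament markers were measured. Their summed level ran from 4277578 to 4695757 in females and from 4158307 to 4524618 in males, and so overlapped between the sexes. Of these markers, 0 were called in limma, 3 had an unadjusted p under 0.05, and 0 were called by edgeR and 1 by DESeq2. The 3 went in different directions, with a difference of females from males of 8.99% for Myh6, -12.1% for Actc1 and -5.86% for Myl3. For Actc1 every female heart was below every male heart. In RNA from a whole heart, fewer cells of a type and less RNA per cell cannot be told apart. The sexes were compared with limma on log2(value + 1) over all genes, and genes whose Benjamini-Hochberg adjusted p was below 0.05 were called.

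The release channel, the pump and the exchanger were higher in female hearts, and the 7 other genes did not pass the test. Ryr2, Atp2a2 and Slc8a1 rose by 12.2% to 16.8%, so 3 of 10 genes were called, where 1.16% of all 17911 genes were called 0.475% higher and 0.687% lower in females. The levels of female and male hearts did not overlap for 5 of the 10, namely these 3, Jph2 and Casq2, 4 of them above and 1 below, and 9.35% of all genes had no overlap, 4.52% above and 4.82% below. All 10 genes are abundant. Among the 1880 genes with a mean level of at least 5000, a limit set after the values were seen, 3.03% were called and 16.0% had no overlap. The median log2 difference was 0.02 over the 10 genes and 0.00 over all genes tested.

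**Figure D1:**
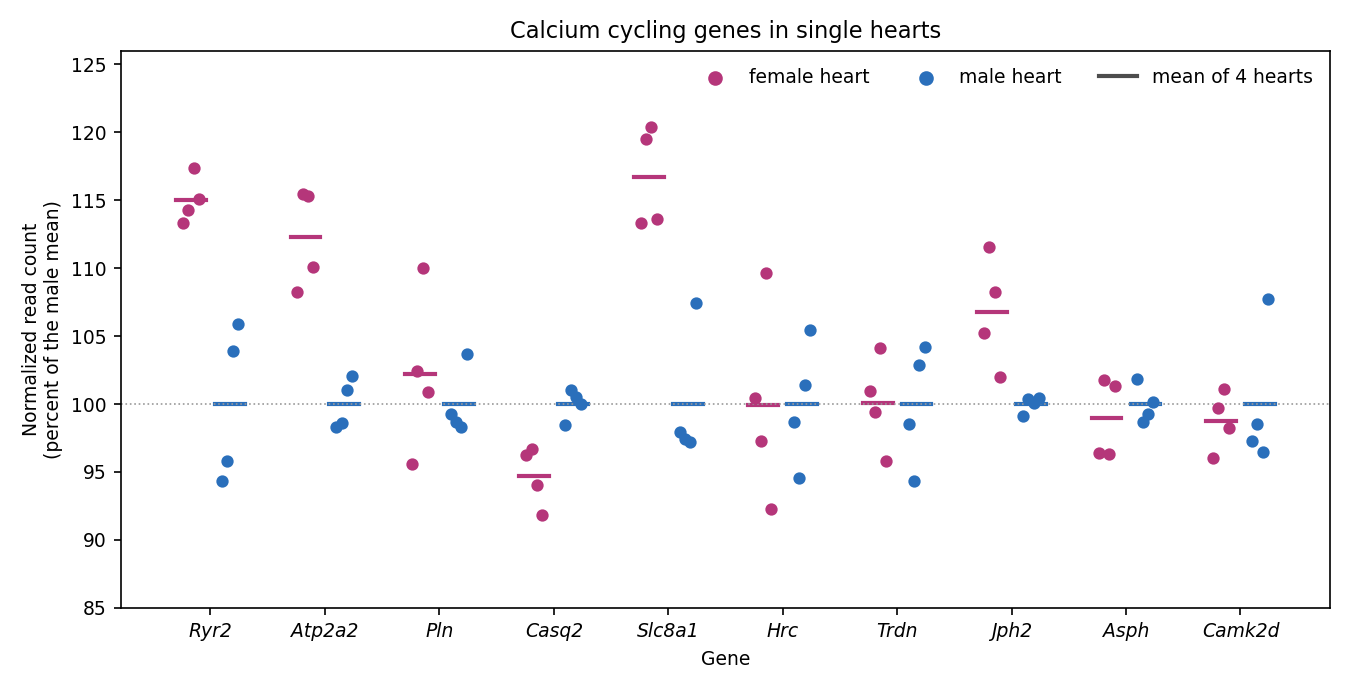
Normalized read count of each gene in single female and male hearts, as a percent of the male mean (points; the bar is the mean of 4 hearts, and the dotted line the male mean). For Ryr2, Atp2a2, Slc8a1 and Jph2 every female heart lies above every male heart, and for Casq2 every female heart lies below.

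The calcium release channel gene Ryr2 (chromosome 13, 11553102 to 12106945, minus strand, mm10) was higher in every female heart than in any male heart. Its levels were 126349, 127440, 130901 and 128315 in the female hearts and 105166, 106847, 115877 and 118086 in the male hearts. The female hearts lay close together, with a coefficient of variation of 1.51%, while the male hearts spread over 5.77%, with replicates 1 and 3 below replicates 4 and 5. The female mean was higher by 0.20 on the log2 scale (SE 0.04; adjusted p = 0.0341 in limma), or 15.2% (95% interval 8.37% to 22.4%). The call remained without male replicate 5 (adjusted p = 0.00923). It ended without any 1 of the other 7 hearts, at adjusted p = 0.0538 without male replicate 4 to 0.107 without female replicate 2, with log2 fold changes of 0.18 to 0.22.

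Atp2a2, the calcium pump gene (chromosome 5, 122453513 to 122502225, minus strand), was the most abundant of the 10 and took 1.84% of all reads. Its levels were 1211663, 1292021, 1290358 and 1232205 in the female hearts and 1100346, 1103856, 1131184 and 1142030 in the male hearts. Every female heart was above every male heart. Expression was 0.17 higher in females on the log2 scale (SE 0.03; adjusted p = 0.0405 in limma), or 12.2% (95% interval 6.54% to 18.2%). That call remained without male replicate 5 (adjusted p = 0.0279) and ended without any 1 of the other 7 hearts, at 0.0598 without female replicate 1 to 0.163 without female replicate 2. The call was also lost in edgeR when upper quartile factors were used (adjusted p = 0.0605). The predicted gene Gm43361 shares 1.37% of its exon bases on the opposite strand and had a level of 399 to 457.

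Slc8a1, the sodium-calcium exchanger gene (chromosome 17, 81373105 to 81738377, minus strand), had the largest fold change of the 10. Its levels were 11349, 11972, 12061 and 11384 in the female hearts and 9814, 9761, 9735 and 10760 in the male hearts. Male replicate 5 stood above the other 3 male hearts but below every female heart. On the log2 scale it rose by 0.22 in females (SE 0.04; adjusted p = 0.0200 in limma), or 16.8% (95% interval 10.1% to 23.8%). The call remained without female replicate 1, female replicate 4 or male replicate 5, and ended without female replicate 2 (adjusted p = 0.0823), female replicate 3 (0.0534), or male replicate 1 (0.0544), 3 (0.0643) or 4 (0.0662).

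With total reads per heart as a covariate, the calls of Ryr2 (adjusted p = 0.0924), Atp2a2 (adjusted p = 0.109) and Slc8a1 (adjusted p = 0.0504) ended in limma. The log2 fold changes were then 0.18, 0.16 and 0.19. Male replicates 1, 3 and 4 had 70.2 M to 75.7 M reads, more than any female heart (at most 66.3 M). Depth thus went partly with sex, and this fit cannot fully separate them. Relative to the mean of the 8 myofilament markers, the same 3 genes were called, with limma adjusted p of 0.00879, 0.00919 and 0.0272 in that order. The authors' deposited table lists log2 fold changes of 0.20, 0.17 and 0.22 for them, with adjusted p of 3.65e-04, 6.49e-05 and 6.57e-05. There, 3.85% of all genes had an adjusted p under 0.05, and these were the only ones of the 10. DESeq2 run on the recovered reads gave adjusted p of 3.65e-04, 6.52e-05 and 6.57e-05 in that order. It called 690 genes, as many as the deposited table, so the deposited values are not a separate result.

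The gene of phospholamban, the small membrane protein that restrains the pump, did not pass the test. Pln (chromosome 10, 53337667 to 53345987, plus strand) had levels of 336467, 360542, 387066 and 354968 in the female hearts and 349427, 347304, 346001 and 364854 in the male hearts. The sexes overlapped, since female replicate 1 was the lowest of the 8 hearts and female replicate 3 the highest. Females and males differed by 0.03 on the log2 scale (SE 0.04; adjusted p = 0.784 in limma), with a 95% interval of -4.15% to 8.83%. Without female replicate 3 it was -0.01. A predicted gene on the opposite strand, Gm47644, covers 59.6% of the annotated Pln exon bases, and since no source used here says whether strand was used in counting, reads of the 2 genes cannot be told apart.

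The bases before the RefSeq start are shown for Ryr2 and Slc8a1, which rose, and for Pln, which did not pass, so that their letters can be set side by side. RefSeq (GRCm38.p6) held a start window for 7 of the 10 genes. Each line gives the 250 bases before the start, 5′ to 3′ on the strand of the gene, with matches to 3 motifs in capitals.
Ryr2, chr13:12106946-12107195, minus strand: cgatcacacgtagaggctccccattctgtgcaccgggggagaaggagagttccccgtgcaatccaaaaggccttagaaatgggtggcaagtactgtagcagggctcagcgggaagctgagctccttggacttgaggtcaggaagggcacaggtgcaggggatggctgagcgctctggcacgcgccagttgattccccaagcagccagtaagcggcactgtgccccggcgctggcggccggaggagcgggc
Slc8a1, chr17:81738388-81738637, minus strand: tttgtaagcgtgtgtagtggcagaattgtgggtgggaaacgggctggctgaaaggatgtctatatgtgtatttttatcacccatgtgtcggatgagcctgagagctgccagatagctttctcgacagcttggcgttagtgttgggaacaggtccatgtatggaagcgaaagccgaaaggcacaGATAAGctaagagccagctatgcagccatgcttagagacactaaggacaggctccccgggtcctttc
Pln, chr10:53337436-53337685, plus strand: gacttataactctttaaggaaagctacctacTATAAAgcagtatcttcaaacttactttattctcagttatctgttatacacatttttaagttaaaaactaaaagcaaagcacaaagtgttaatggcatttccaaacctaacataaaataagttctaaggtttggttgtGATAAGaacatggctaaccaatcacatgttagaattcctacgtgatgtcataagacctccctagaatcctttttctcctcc
The motifs searched on both strands were TATAAA (a core promoter element), GATAAG (recognised by GATA factors) and a form of the MEF2 factor motif. The MEF2 form was CTA, then any 4 bases, then TAG. It is loose in the middle but fixed at its ends, so MEF2 sites with other end bases were not searched. Pln held 1 TATAAA and 1 GATAAG, Slc8a1 held 1 GATAAG, and Ryr2 held none of the 3. The TATAAA of Pln lies near the end of the window that is farthest from the start. A match in letters alone does not make it a core promoter element. Over all 32851 windows of the same length, 12.4% held TATAAA, 6.55% GATAAG and 3.20% the MEF2 form searched. The share of G and C was 63.2% for Ryr2, 50.4% for Slc8a1 and 32.8% for Pln, against a median of 52.4% (quartiles 45.2% and 61.2%) over all windows. The upstream windows of Casq2, Hrc, Jph2 and Camk2d held none of the 3 motifs in the forms searched, which does not exclude other forms.

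Neither calcium buffer gene of the store passed the test. Casq2, calsequestrin 2 (chromosome 3, 102086415 to 102146514, plus strand), had levels of 54532, 54769, 53259 and 52039 in the female hearts and 55759, 57241, 56935 and 56671 in the male hearts. Every female heart was below every male heart, but the difference was small: it was -0.08 on the log2 scale (SE 0.03; adjusted p = 0.215 in limma), with a 95% interval of -9.40% to -1.04% that is not adjusted for the number of genes. Hrc (chromosome 7, 45335290 to 45338974, plus strand), whose product also binds triadin, ran from 66889 to 79476 in females and from 68524 to 76431 in males. The log2 difference was -0.0033 (SE 0.05; adjusted p = 0.985 in limma), with a 95% interval of -7.65% to 7.79%.

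The genes of the junction between the store and the cell membrane did not pass the test. Jph2 (chromosome 2, 163336242 to 163397993, minus strand) had levels of 41436, 43914, 42626 and 40155 in the female hearts and 39021, 39522, 39388 and 39539 in the male hearts. The male hearts were within a coefficient of variation of 0.611%, and every female heart was above them. The log2 difference was 0.09 (SE 0.03; adjusted p = 0.184 in limma), or 6.71% (95% interval 1.62% to 12.1%). Trdn (chromosome 10, 33080554 to 33476709, plus strand) ran from 16233 to 17636 in females and from 15985 to 17655 in males, a log2 difference of 0.0015 (SE 0.04; adjusted p = 0.991 in limma) with a 95% interval of -5.53% to 6.06%. Asph (chromosome 4, 9448069 to 9669344, minus strand) ran from 14801 to 15638 in females and from 15162 to 15653 in males, a log2 difference of -0.02 (SE 0.03; adjusted p = 0.853 in limma) with a 95% interval of -5.54% to 3.58%. The Asph locus gives rise to junctin and to an aspartyl hydroxylase from alternative transcripts, 20 of which are annotated, and gene-level reads do not separate them. Clvs1 shares 14.3% of the Asph exon bases on the opposite strand, at a level of 47.5 to 82.1.

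Camk2d, the kinase gene (chromosome 3, 126596302 to 126846326, plus strand), had levels of 9791, 10167, 10314 and 10021 in the female hearts and 9921, 10047, 9837 and 10990 in the male hearts. The sexes overlapped, and male replicate 5 was the highest of the 8. The log2 difference was -0.02 (SE 0.04; adjusted p = 0.878 in limma), with a 95% interval of -6.65% to 4.68%. Without male replicate 5 it was 0.02.

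Within a sex the 10 genes varied about as much as other abundant genes. Their coefficients of variation ran from 1.51% (Ryr2) to 7.32% (Hrc) in females, with a median of 3.24%, and from 0.611% (Jph2) to 5.77% (Ryr2) in males, with a median of 3.48%. The medians of the 1880 genes with a mean level of at least 5000 were 3.40% in females and 3.29% in males.

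Per kilobase of annotated exon, the pump led the order of levels and the exchanger and the kinase closed it. Atp2a2 reached 206637 ± 6719 normalized reads per kilobase in female hearts and 184074 ± 3364 in male hearts (mean ± SD over 4 hearts), and Pln 130395 ± 7579 and 127545 ± 3173. The buffers Hrc and Casq2 followed at 28221 ± 2065 and 19609 ± 461 in females and at 28251 ± 1296 and 20706 ± 234 in males. Next came the junction and release channel genes. Jph2 stood at 9878 ± 378 in females against 9252 ± 56.5 in males, and Ryr2 at 4455 ± 67.4 against 3873 ± 224. Trdn ranged over the 8 hearts from 1709 to 1888, Asph from 919 to 972, Slc8a1 from 518 to 641 and Camk2d from 435 to 489 reads per kilobase. In this order the ranges of neighbouring genes over the 8 hearts did not overlap.

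The choice of length moved some levels more than the hearts differed. Per kilobase of the longest annotated coding transcript, Camk2d ranged from 1773 to 1989, above Slc8a1 at 527 to 653, since the annotated exons of Camk2d cover 22.5 kb and its longest coding transcript 5.52 kb. That was the 1 change of order among the 45 pairs of genes. On this scale Ryr2 ranged from 6255 to 7785, Trdn from 3541 to 3911 and Asph from 2211 to 2338 reads per kilobase.

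**Figure D2:**
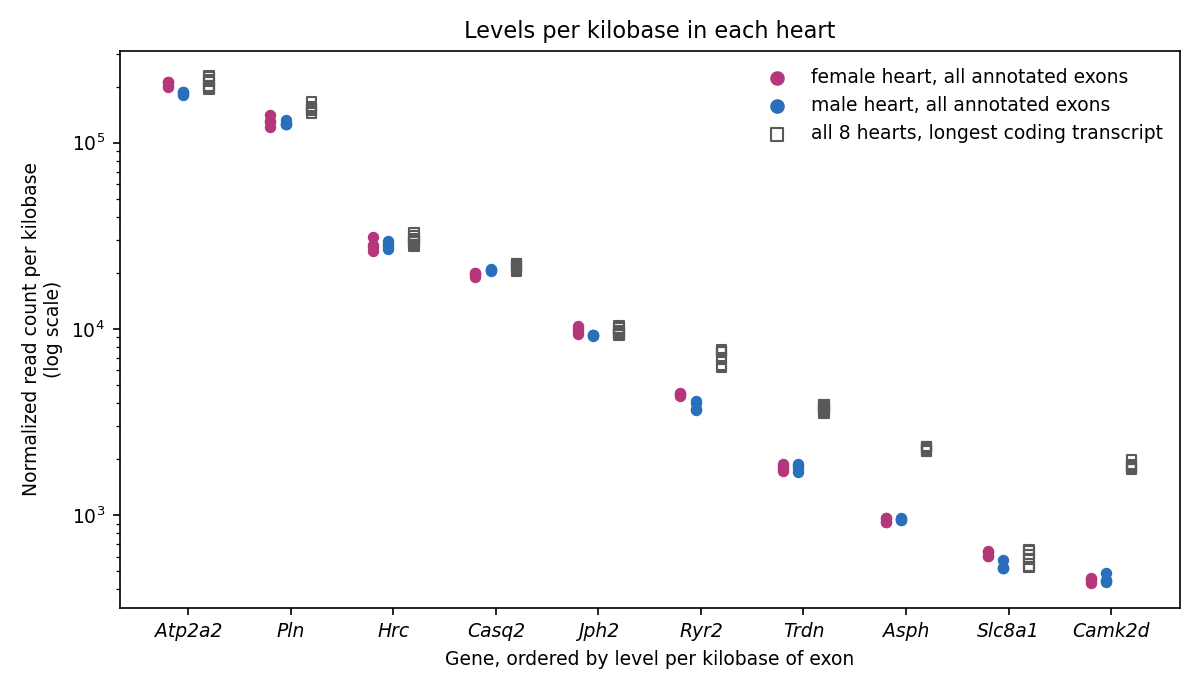
Normalized read count per kilobase (log scale) for each gene and heart, per kilobase of all annotated exons (filled circles, female and male) and of the longest coding transcript (open squares, all 8 hearts). Atp2a2 and Pln lie highest on both scales, and Camk2d moves from 435 to 489 on the first to 1773 to 1989 on the second.

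Related genes of the same families added little for the channel, the pump, calsequestrin, the exchanger and junctophilin. In all 8 hearts Ryr2 made up 99.5% to 99.6% of the per-kilobase level of the ryanodine receptors, and Atp2a2 99.8% to 99.9% of that of the SERCA pumps. Casq2 made up 97.2% to 98.3% beside Casq1, Slc8a1 95.4% to 97.2% beside Slc8a2 and Slc8a3, and Jph2 95.5% to 96.2% beside Jph1, Jph3 and Jph4. The skeletal muscle forms were low, with levels of 37.8 to 146 for Ryr1, 145 to 269 for Atp2a1 and 720 to 1137 for Casq1. Camk2d shared its family with Camk2a, Camk2b and Camk2g. Its share was 25.2% to 26.4% per kilobase of exon and 44.9% to 46.6% per kilobase of the longest coding transcript, so its rank in the family rests on the length used.

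Ratios of partner genes within a heart ask whether the members keep their proportions in both sexes. Size factors, and gene lengths as divisors, cancel when the sexes are compared. A sex difference that goes with transcript length, as described below, does not cancel. For 4 of the 10 ratios chosen the sexes did not overlap: pump to phospholamban, and calsequestrin, triadin and junctin locus to release channel. Each had a two-sided exact permutation p = 0.0286 (n = 4 each), the smallest that the 70 assignments of hearts allow, and an adjusted p = 0.0714 over the 10 ratios. So 0 ratios passed the adjusted threshold, and 4 had an unadjusted exact p under 0.05. With 10 ratios, 4 at the smallest p cannot reach an adjusted p under 0.05. The ratios are not separate findings, since 3 of these 4 have Ryr2 as denominator and 2 of those 3 have a numerator, Trdn or Asph, whose log2 difference was 0.0015 or -0.02.

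The Atp2a2 to Pln ratio per kilobase of exon was 1.63, 1.63, 1.51 and 1.57 in the female hearts and 1.43, 1.44, 1.48 and 1.42 in the male hearts. Every female heart was above every male heart. The means were 1.59 ± 0.0560 and 1.44 ± 0.0280 (SD, n = 4 each), a difference of 9.89% (log2 0.14), which ran from 0.12 to 0.16 on the log2 scale when 1 heart was left out. Camk2d to Pln did not separate the sexes (exact permutation p = 0.2, adjusted p = 0.25, n = 4 each).

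The Casq2 to Ryr2 ratio per kilobase of exon was 4.54, 4.52, 4.28 and 4.27 in the female hearts and 5.58, 5.64, 5.17 and 5.05 in the male hearts. Female hearts thus held fewer calsequestrin reads for each release channel read, by a difference of -17.8% (log2 -0.28; -0.31 to -0.26 without 1 heart). The means were 4.40 ± 0.149 and 5.36 ± 0.293 (SD, n = 4 each) per kilobase of exon, and 2.75 and 3.35 per kilobase of the longest coding transcript. Trdn to Ryr2 was 0.407 ± 0.0124 in females against 0.468 ± 0.0138 in males, a difference of -13.1% (log2 -0.20; -0.21 to -0.18 without 1 heart). Asph to Ryr2 was 0.212 ± 0.00778 and 0.247 ± 0.0157, a difference of -14.1% (log2 -0.22; -0.25 to -0.18 without 1 heart).

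In the other ratios the sexes overlapped. Among the 3 genes that rose, Ryr2 to Atp2a2 was 0.0216 ± 0.000563 in females and 0.0210 ± 0.000832 in males per kilobase of exon (exact permutation p = 0.314, adjusted p = 0.349, n = 4 each). Slc8a1 to Atp2a2 differed by 4.04% (exact permutation p = 0.143, adjusted p = 0.204). Jph2 to Ryr2 differed by -7.34% (exact permutation p = 0.0857, adjusted p = 0.143), Trdn to Casq2 by 5.72% (exact permutation p = 0.0571, adjusted p = 0.114) and Hrc to Casq2 by 5.37% (exact permutation p = 0.4, adjusted p = 0.4).

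**Figure D3:**
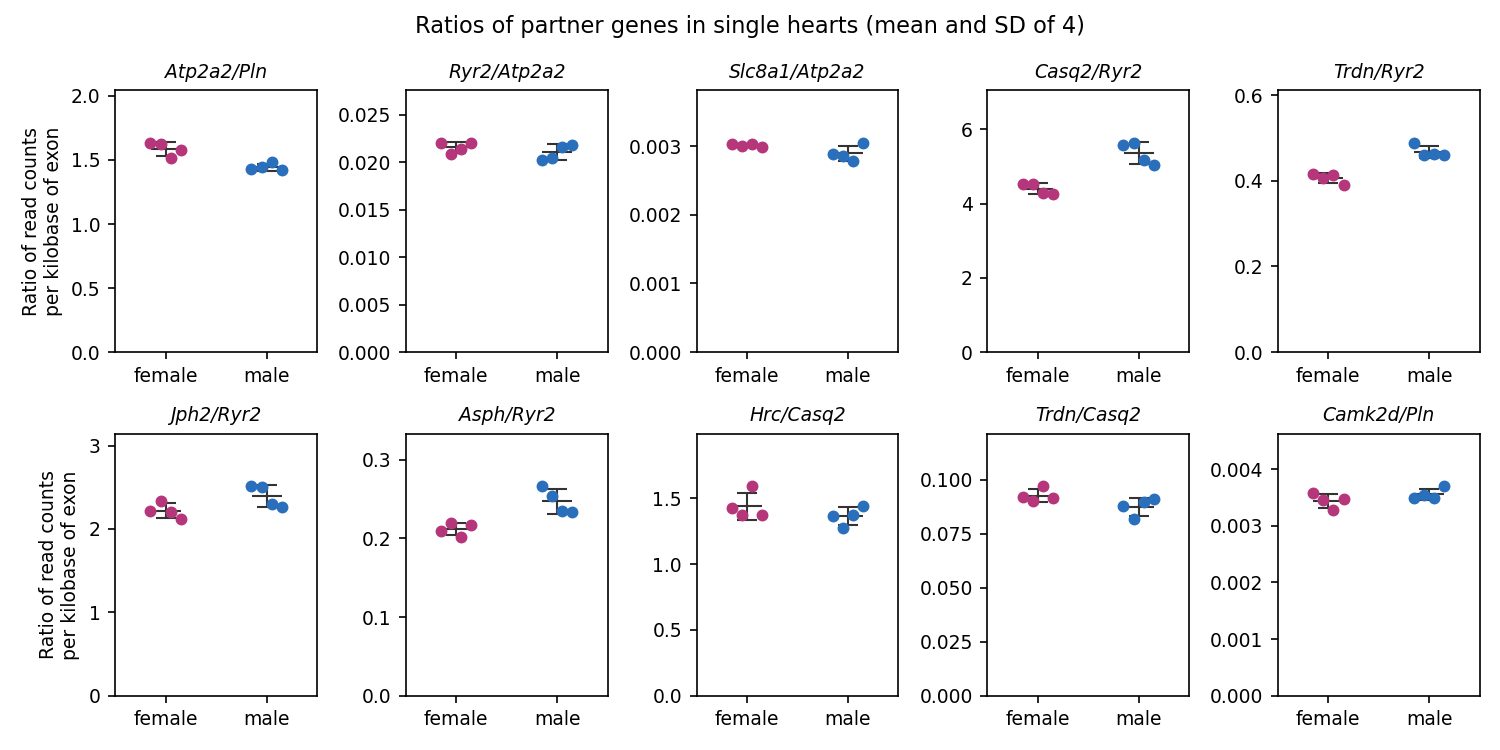
Ratios of normalized read counts per kilobase of exon for 10 pairs of partner genes in single hearts (points), with the mean and SD of 4 hearts per sex; each axis starts at 0. Atp2a2/Pln is higher in every female heart, and Casq2/Ryr2, Trdn/Ryr2 and Asph/Ryr2 are lower in every female heart.

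Co-variation was read from deviations of each heart from the mean of its sex, so that the sex difference did not enter. Of the 45 pairs of genes 37 had a positive Pearson r, with a median of 0.44 and a range of -0.56 to 0.95. The pairs share the same 10 genes and 8 hearts and are not independent, and pairs of other genes were not counted in this way. By exact permutation of hearts within each sex, 7 pairs had an unadjusted p under 0.05 and 0 an adjusted p under 0.05 over the 45 pairs. All 10 genes lay above the male mean in male replicate 5, with a median log2 deviation of 0.06. Casq2, Asph and Jph2 did so by only 0.00056, 0.0026 and 0.0063. In female replicate 3, 8 of 10 lay above the female mean. In female replicate 4 only 2 of 10 and in male replicate 1 only 1 of 10 lay above. Male replicate 5 (55.0 M reads) and female replicate 4 (51.7 M reads), the hearts with the fewest reads, lay on opposite sides. All values of a heart share its size factor, and its part in these correlations was not tested.

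By Pearson r, the 3 highest correlations joined Slc8a1 with Camk2d, Hrc with Trdn, and Atp2a2 with Pln. Slc8a1 and Camk2d had r = 0.95 (exact permutation p = 0.00521, adjusted p = 0.0586, n = 8) and rho = 0.88 (exact permutation p = 0.00868, adjusted p = 0.0977). Without female replicate 3 and male replicate 5, the hearts farthest from the median of Slc8a1, r was 0.72, and with no centring on sex it was 0.24 (adjusted p = 0.82). Hrc and Trdn, whose products bind each other, had r = 0.92 (exact permutation p = 0.00347, adjusted p = 0.0586, n = 8) and rho = 0.93 (exact permutation p = 0.00347, adjusted p = 0.0781). Without female replicates 3 and 4, r was 0.96, but relative to the myofilament markers it was 0.42 (adjusted p = 0.591). The pump and its inhibitor, Atp2a2 and Pln, had r = 0.79 (exact permutation p = 0.0486, adjusted p = 0.303, n = 8) and rho = 0.71 (exact permutation p = 0.118, adjusted p = 0.483), and r = 0.84 without female replicates 1 and 2.

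The order by rho was different, and the pairs named here were chosen after their values were seen. Pln with Slc8a1 and Atp2a2 with Jph2 had the highest rho, 0.95 each. Pln and Slc8a1 had r = 0.75 with the smallest p that the permutations can give (exact permutation p = 0.00174, adjusted p = 0.0586, n = 8), a rho with exact permutation p = 0.00347 (adjusted p = 0.0781), and r = 0.98 without female replicates 1 and 3. Atp2a2 and Jph2 had r = 0.73 (exact permutation p = 0.2, adjusted p = 0.449, n = 8), a rho with exact permutation p = 0.0486 (adjusted p = 0.438), and r = 0.79 without female replicates 1 and 2. Pln and Camk2d had r = 0.71 (exact permutation p = 0.00521, adjusted p = 0.0586, n = 8) and rho = 0.88 (exact permutation p = 0.00868, adjusted p = 0.0977), and r = 0.97 without female replicates 1 and 3.

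Other partners of the release unit differed in how closely they varied together in these hearts. Ryr2 and Trdn had r = 0.74 (exact permutation p = 0.12, adjusted p = 0.433, n = 8) and rho = 0.76 (exact permutation p = 0.142, adjusted p = 0.491), and r = 0.78 without male replicates 1 and 5. Casq2 showed low r with Ryr2, Trdn and Hrc. With Jph2 it had r = 0.70 (exact permutation p = 0.174, adjusted p = 0.449, n = 8) and rho = 0.43 (exact permutation p = 0.358, adjusted p = 0.762). Without female replicate 4 and male replicate 1 that r was 0.15, and this pair was named after its values were seen. Ryr2 and Casq2 had r = 0.03 (exact permutation p = 0.918, adjusted p = 0.958, n = 8) and rho = -0.12 (exact permutation p = 0.743, adjusted p = 0.871), and r = -0.29 without male replicates 1 and 5. Ryr2 and Jph2 had r = 0.12 (exact permutation p = 0.516, adjusted p = 0.773, n = 8) and rho = 0.29 (exact permutation p = 0.33, adjusted p = 0.762), and r = 0.01 without the same 2 hearts.

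With Trdn and Hrc, Casq2 had r = 0.18 (exact permutation p = 0.668, adjusted p = 0.883, n = 8) and 0.15 (exact permutation p = 0.814, adjusted p = 0.940). The rho values were 0.05 (exact permutation p = 0.931, adjusted p = 0.974) and 0.00 (exact permutation p = 1, adjusted p = 1). Without female replicate 4 and male replicate 1, r turned to -0.64 and -0.91, so both rest on those hearts. The 3 lowest r all involved Asph. They were -0.56 with Hrc (exact permutation p = 0.283, adjusted p = 0.509, n = 8; rho = -0.57, p = 0.264, adjusted p = 0.742), -0.38 with Trdn (exact permutation p = 0.345, adjusted p = 0.598; rho = -0.33, p = 0.396, adjusted p = 0.762) and -0.32 with Casq2 (exact permutation p = 0.505, adjusted p = 0.773; rho = -0.10, p = 0.812, adjusted p = 0.871). Without the 2 hearts farthest from the median of the first gene these were -0.10 (without female replicates 3 and 4), -0.69 (without female replicate 4 and male replicate 3) and 0.50 (without female replicate 4 and male replicate 1).

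**Figure D4:**
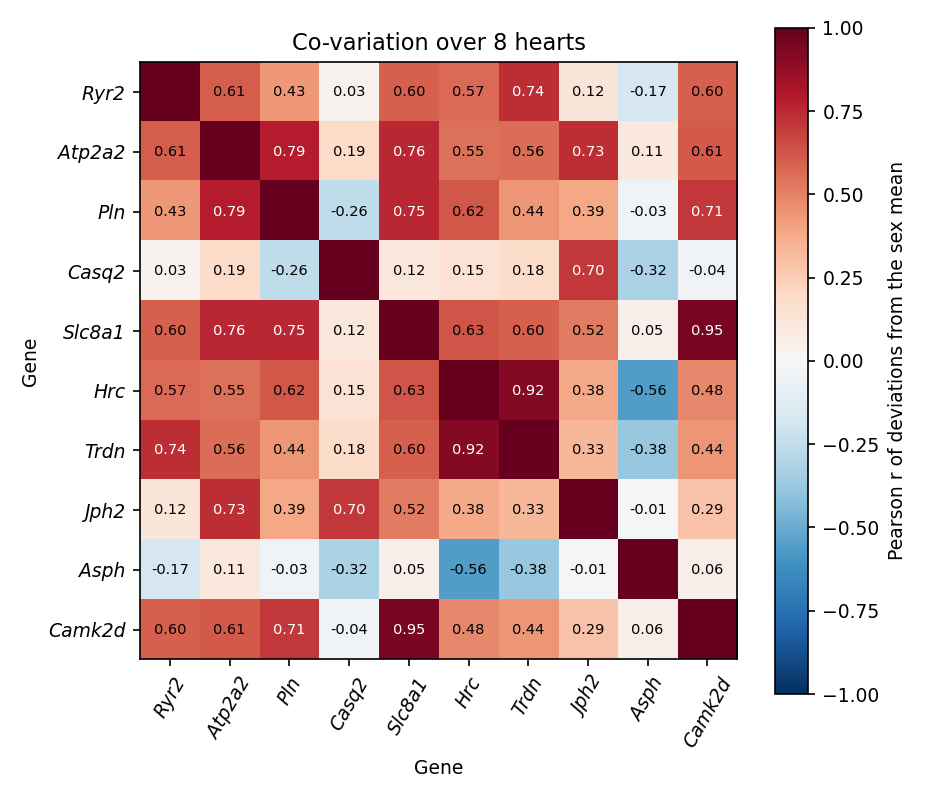
Pearson r between each pair of the 10 genes over 8 hearts, computed on log2 values as deviations from the mean of the sex (colour scale from -1 to 1, values printed). Red fills most cells, 37 of 45 pairs, while the rows of Casq2 and Asph are pale or blue against several genes.

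The genes of the whole table most like Ryr2 in this measure, among 7203 genes with a mean level of at least 1000, were Zfp512b (r = 0.98), Brpf1 (0.98), Exoc7 (0.97), Tspan4 (0.96) and Smim7 (0.96). For Atp2a2 they included Sh3rf2 (r = 0.96), Yae1d1 (0.95), Kcnd3 (0.94) and Rap1gap2 (0.94). For Pln they were Csnk2b (r = 0.98), Hrasls (0.98), Fndc5 (0.97), Rab18 (0.97) and Adamts7 (0.97). None of the 10 calcium cycling genes stood among these. Pln was the 134th gene by r with Atp2a2, Slc8a1 the 202nd and Jph2 the 270th, and Trdn was the 369th by r with Ryr2. These were the best ranks of members with Atp2a2 and Ryr2. Casq2 and Asph were the 4058th and 5074th with Ryr2, and the 3040th and 3572nd with Atp2a2. With Pln they were the 5365th and 4387th, and Jph2 was the 3613th with Ryr2. The median r of all genes was 0.12 with Ryr2, 0.10 with Atp2a2 and 0.13 with Pln. These r are descriptions over 8 hearts chosen as the highest of many.

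Of 54 neighbouring calcium genes listed by name, 52 were measured. Speg, a striated muscle kinase gene, rose by 0.15 on the log2 scale (SE 0.03; adjusted p = 0.0493 in limma), 0 fell and 51 did not pass, where 1.16% of all genes were called. Their median log2 fold change was -0.02, with 22 positive and 30 negative, and 5 had every female heart above every male heart and 5 the reverse, in all 10 of 52 where 9.35% of all genes had no overlap. Speg had levels of 22061, 23111, 23525 and 23704 in the female hearts and 20038, 21221, 21130 and 20670 in the male hearts. Its call remained without female replicate 1 (adjusted p = 0.0419) or male replicate 5 (adjusted p = 0.0475) and ended without any 1 of the other 6 hearts, at adjusted p = 0.0893 without male replicate 3 to 0.137 without female replicate 2. The call also ended relative to the myofilament markers (adjusted p = 0.136), when depth entered as a covariate (0.106), in edgeR under upper quartile scaling (0.0558) and in the 5 hearts with the most reads (0.215). DESeq2 called 6 of the 52 genes and 4.9% of the 14088 genes to which it gave an adjusted p.

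The small proteins that bind the pump beside phospholamban did not pass. Sarcolipin (Sln), an inhibitor found chiefly in the atria, was at 8536 ± 1157 in females against 9254 ± 1917 in males (SD over 4 hearts, limma adjusted p = 0.837). Strit1, which encodes the pump activator DWORF and stands in the table as Gm34302, was at 310 ± 25.7 in females against 414 ± 100 in males (limma adjusted p = 0.206). Its male mean includes 563 in male replicate 4, against 348 to 375 in the other male hearts. Every female heart, at 285 to 345, was below every male heart. Mrln, the gene of myoregulin, had 40.3 ± 8.34 and 46.4 ± 9.68 (limma adjusted p = 0.714).

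The sex difference was also set beside transcript length and the markers of other cell types. Among 7242 genes with a mean level of at least 1000 and an annotated coding transcript, the log2 difference between the sexes was larger for longer transcripts, with a Spearman rho of 0.23 across genes, which are not independent replicates. The median log2 difference was -0.02 for the 1517 genes with transcripts under 2 kb, -0.01 for the 2732 from 2 to 4 kb, 0.01 for the 2468 from 4 to 8 kb and 0.03 for the 525 of 8 kb or more. Slc8a1 (18.5 kb) and Ryr2 (16.8 kb), which rose most, have the longest transcripts of the 10. Atp2a2 rose with 5.67 kb, while Camk2d at 5.52 kb and Asph at 6.69 kb did not pass. The part of length in these differences and in the ratios of partner genes was not tested.

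**Figure D5:**
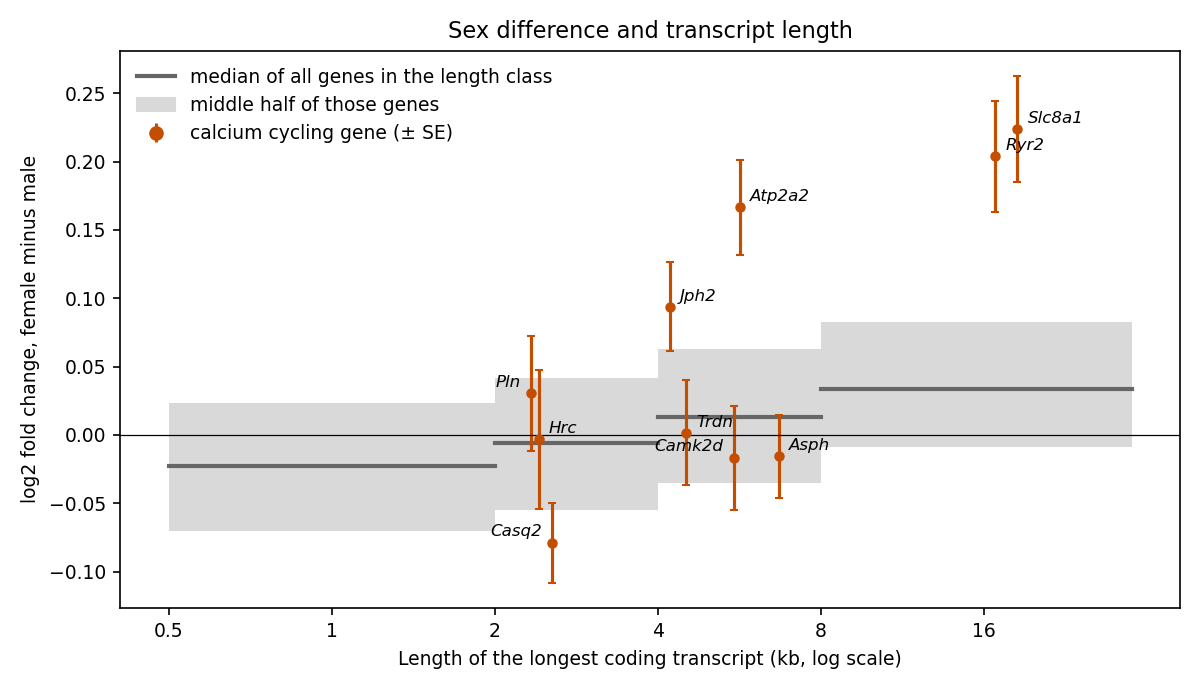
Log2 fold change (female minus male) against the length of the longest coding transcript (log scale) for the 10 genes (points, bars are the SE), over the median (line) and the quartiles (grey) of all genes with a mean level of at least 1000 in 4 length classes. The class medians run from -0.02 to 0.03, while Atp2a2, Ryr2 and Slc8a1 lie at 0.17, 0.20 and 0.22.

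All 5 macrophage markers were measured, and 0 had a positive log2 fold change (female minus male). In limma 3 of the 5 were called, where 1.16% of all genes were called. These were Csf1r (-22.2%), C1qa (-24.6%) and C1qb (-23.9%), all lower in females, while Cd68 and Adgre1 did not pass. The summed level of the 5 ran from 8105 to 9670 in females and from 10202 to 13002 in males. Of 11 skeletal muscle markers 8 were measured, and their sum ran from 10391 to 16234 in females and from 16784 to 30872 in males. Acta1, which the heart also expresses, made up most of that sum, with 10781 ± 2525 in females against 20949 ± 6653 in males (SD over 4 hearts). None of the 8 was called in limma, edgeR or limma-voom and 1 was called in DESeq2, and Acta1 had a limma adjusted p = 0.193. In limma 1 of the 8 had an unadjusted p under 0.05. The 7 other measured markers of that list, with Ryr1, Atp2a1 and Casq1 among them, overlapped between the sexes. The summed levels of the atrial, fibroblast, endothelial, smooth muscle and pericyte, red cell, fat and T cell markers overlapped between the sexes. None of those markers was called in limma. In limma 1 marker each of the fibroblast, endothelial and T cell lists had an unadjusted p under 0.05. The part of any marker list in the differences above was not tested.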

How the data were processed

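RNA from 8 hearts was compared, 4 per sex. The deposited table gives, for each heart, a signal column whose values are reads per gene that the authors had divided by a size factor (0.821 to 1.17), as their steps show. All values were whole multiples of 1 read (100%, tolerance 0.001 reads), so whole reads were recovered. It also holds the authors' log2 fold changes and the authors' p-values. Per the submitters' processing notes the build was mm10; no source used here names the aligner, counter, strand setting or test. The labels state over 80 M reads per sample. The gene with the fewest reads had 81.

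The sexes were compared by limma 3.58.1 in R 4.3.3, with a mean-variance trend and robust variance, as female minus male on log2(value + 1) for genes with a value of at least 1 in 4 hearts, with Benjamini-Hochberg adjustment over all genes. Fold changes on this scale understate those of low genes. Alternatives used edgeR 4.0.16 and DESeq2 1.42.0 run on the reads so recovered, changed pseudocounts or filters, blocks, a depth covariate and leaving out each heart. Exon and transcript lengths came from GENCODE M21 (mm10), where 42 identifiers had no match. Ratios and correlations used exact permutations computed with numpy 2.4.6; within a sex there are 576 orders of the hearts, so the smallest p is near 0.00174. The 12 pairs of hearts of 1 sex differed by 8.21 to 18.4 times the sampling noise (chi-square per degree of freedom). The limma fit and the search for like genes were tested on simulated data.

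The members, lists and tests were chosen with earlier results of these data known. Named genes were the 10 members, neighbouring genes called or of a member's family, pump regulators, and the 5 genes with the highest r to Ryr2, Atp2a2 and Pln, leaving out predicted genes; 1 of these is not reported here.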

Additional observations from a re-analysis of the deposited data

Results flagged for a closer look

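Each value here stood apart from the other 3 hearts of its sex by a gap that takes up most of the range of the 4 (Dixon's test, 95% level). Among 144 groups of 4 values checked, 11 stood apart, and chance gives about 1 in 20. Slc8a1 was 10760 in male replicate 5, against 9735 to 9814 in the other male hearts. The same heart was high for Camk2g (4586 against 4247 to 4271) and Prkaca (15254 against 13611 to 13851) and low for Atp2b4 (1933 against 2248 to 2310). Strit1, listed as Gm34302, was 563 in male replicate 4 against 348 to 375. Srl, the sarcalumenin gene, was 66672 in female replicate 4 against 68388 to 68456, and 69156 in male replicate 1 against 72576 to 72823. Ppp1cb was 20767 in female replicate 1 against 21858 to 21977. In female replicate 3, Prkaca was 14584 against 14023 to 14084 and Tmem38b was 1931 against 1791 to 1798. The Trdn to Ryr2 ratio per kilobase of exon was 0.489 in male replicate 1 against 0.460 to 0.463.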

How the results depend on the processing

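Of the 10 genes, 3 were called in the main limma test. The count was 1 in the 5 hearts with the most reads, which are female replicates 1 and 2 and male replicates 1, 3 and 4. There the log2 fold changes of Ryr2, Atp2a2 and Slc8a1 were 0.22, 0.17 and 0.25. The count was 0 with total reads as a covariate, where depth goes partly with sex. It was 0 at the thresholds named in the labels (log2 fold change over 0.6 in size and unadjusted p under 0.05). Leaving out 1 heart gave 0 to 3. Of the neighbouring genes 1 was called, against 6 with DESeq2, 2 with a block by the last digit of the library code (added after seeing the data), 0 with upper quartile factors, 0 relative to myofilament markers, 0 with total reads as a covariate, 0 at the labels' thresholds and 0 to 4 without 1 heart. Blocks by replicate number gave 1 of the 10 genes (title number) or 0 (library code number), and 0 and 0 neighbouring genes. Same-numbered hearts deviated together with r of 0.19, -0.07 and -0.09 by title number and of 0.19, -0.07 and 0.19 by library code, so the numbers were not taken as pairs.

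The pairs of genes past the adjusted threshold were 0 in the main measure and 2 with TMM-scaled CPM (Pln with Slc8a1, Hrc with Trdn). With no centring on sex, which leaves the sex difference in r, there were 5. These were Ryr2 with Atp2a2, Ryr2 with Slc8a1, Atp2a2 with Slc8a1, Atp2a2 with Jph2, and Hrc with Trdn. The direction turned for Hrc in the 5 hearts with the most reads (0.0098), relative to myofilament markers (0.0084) and with the library code and title number blocks (0.016 and 0.035), for Trdn with upper quartile factors (-0.00044) and the depth covariate (-0.0065), and for Camk2d in the 5 deepest hearts (0.0062) and with the title number block (0.015). Without 1 heart the ranges were -0.049 to 0.034 for Hrc, -0.026 to 0.022 for Trdn, -0.034 to 0.020 for Camk2d and -0.0054 to 0.062 for Pln. With no centring, r turned to 0.066 for Casq2 with Asph and -0.76 for Ryr2 with Casq2; relative to myofilament markers it turned to 0.83 for Casq2 with Asph, -0.70 for Casq2 with Hrc and 0.36 for Trdn with Asph. With no centring the sex difference is part of r. The cause of the other changes was not tested. The 10 ratio differences kept their direction under every alternative run, and pseudocounts changed no call among the 10 genes, the neighbouring genes or the ratios. Counting error is small at these levels; 8 hearts limit the precision.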
